A study of Mus musculus with 24 samples.

Results

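The regions described here are the open-chromatin regions at the promoters and other ends of the genes for mitochondrial ribosomal proteins. The rule used only name and position, but it was set with earlier results of these data known. It took every region of the ATAC-seq count table that lies within 1 kb of either end of a protein-coding gene of the family. The symbol of the gene had to start with Mrpl or Mrps and a digit. This gave 59 of the 13910 regions of the table, at 53 of the 78 such genes in the RefSeq gene table of GRCm38.p6, the RefSeq release of the mm10 build. The genes with a region were 34 of 49 Mrpl genes and 19 of 29 Mrps genes. ATAC-seq cuts accessible DNA with the Tn5 transposase, so the count in a region measures how open its chromatin was. The series holds 24 libraries of CD45.1 WT donor cells, sorted from the bone marrow of femur and tibia of CD45.2 recipient mice 13 to 15 weeks after transplantation. The recipients were young mice, either WT or IκB–, and all donor cells were WT, so the labelled difference lies in the host. The allele, the promoter that drives it and the host cells that carry it were not given for IκB– in the sources used here. From each recipient type 4 donor subsets of lineage-negative, Sca1+, cKit-high cells were taken, LT-HSC (called HSC here), MPP2, MPP3 and MPP4, with 3 libraries a group and 500 to 1500 cells a library. The labels describe the HSC gate as negative for CD150 and CD48, whereas LT-HSC are usually sorted as CD150+, so what the HSC group holds is uncertain and the name is used here as the label gives it. MPP4 is described as Flt3+. The labels do not say whether libraries came from separate mice or from pools, so p-values measure only the spread between these samples, which may be technical.

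The mitochondrial ribosome makes the few proteins that mitochondrial DNA encodes, which are core parts of the respiratory chain. Its rRNAs come from mitochondrial DNA, but all its proteins are encoded in the nucleus and imported: Mrpl genes encode the large subunit, where peptide bonds form, and Mrps genes the small subunit, where messages are decoded. Long-term stem cells are known to rest largely on glycolysis and to call on mitochondria as they leave quiescence. Nuclear genes for mitochondrial proteins are known as targets of NRF1, of the ETS factor GABP and of YY1. Symbols of this family do not always give the function: Mrpl58 is a peptidyl-tRNA hydrolase that became part of the large subunit, and Mrps36 is now assigned to the oxoglutarate dehydrogenase complex.

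The promoter bases that RefSeq gives (250 before the start site, GRCm38.p6) are shown for the most and least open members, and for those with the smallest p in the comparisons given after them. Mrpl17 and Mrps14 had the highest level of accessibility per kb and Mrpl58 the lowest. Mrpl41 and Mrpl50 had the smallest p for a higher and for a lower level in IκB– recipients. For Mrpl41 that p belongs to a region 689 bp from the start site, and the printed promoter lies in its other region. Mrpl32 was the only member called in any comparison. Sequences run 5′ to 3′ on the gene's strand and end at the base before the start site. Those of Mrpl50 (92 bases) and Mrpl32 (204 bases) are cut short where another gene starts. Capitals mark matches, on either strand, to GCGC-any base-TGCGC (NRF1), CCGGAAG (ETS factors) and GGGCGG (Sp1 and KLF factors).
Mrpl17, chr7:105811088-105811337, minus strand: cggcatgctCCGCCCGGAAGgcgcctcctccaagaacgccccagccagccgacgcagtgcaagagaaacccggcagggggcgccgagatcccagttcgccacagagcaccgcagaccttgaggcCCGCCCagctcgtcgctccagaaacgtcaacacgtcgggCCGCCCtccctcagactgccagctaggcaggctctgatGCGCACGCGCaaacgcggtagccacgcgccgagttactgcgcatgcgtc
Mrps14, chr1:160194965-160195214, plus strand: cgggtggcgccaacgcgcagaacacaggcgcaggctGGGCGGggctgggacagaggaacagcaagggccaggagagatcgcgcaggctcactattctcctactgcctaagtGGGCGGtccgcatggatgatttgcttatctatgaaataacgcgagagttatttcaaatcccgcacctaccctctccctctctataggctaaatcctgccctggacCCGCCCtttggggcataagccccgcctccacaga
Mrpl58, chr11:115403502-115403751, plus strand: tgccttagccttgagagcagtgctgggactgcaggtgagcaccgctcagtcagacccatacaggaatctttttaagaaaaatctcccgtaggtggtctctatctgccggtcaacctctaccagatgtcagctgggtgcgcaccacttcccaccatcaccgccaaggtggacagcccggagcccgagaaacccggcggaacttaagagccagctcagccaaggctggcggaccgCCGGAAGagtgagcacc
Mrpl41, chr2:24975099-24975348, minus strand: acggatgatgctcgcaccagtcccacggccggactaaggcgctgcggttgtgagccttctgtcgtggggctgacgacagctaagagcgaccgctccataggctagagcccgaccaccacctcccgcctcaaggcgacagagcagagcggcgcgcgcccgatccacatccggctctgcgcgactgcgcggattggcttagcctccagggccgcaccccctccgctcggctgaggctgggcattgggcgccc
Mrpl50, chr4:49521084-49521175, minus strand: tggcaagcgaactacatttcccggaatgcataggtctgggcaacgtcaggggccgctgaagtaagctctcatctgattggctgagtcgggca
Mrpl32, chr13:14613038-14613241, minus strand: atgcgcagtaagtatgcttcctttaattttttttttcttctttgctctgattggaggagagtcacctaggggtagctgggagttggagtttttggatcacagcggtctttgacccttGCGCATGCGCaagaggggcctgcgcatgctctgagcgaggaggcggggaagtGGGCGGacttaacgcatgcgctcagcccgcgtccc
The start site of each of these 6 promoters lay in a region of the table. Mrpl32 holds the palindromic form of the NRF1 letters, with A as the free base, which 3 of the 75 promoters of the family hold. All 3 are among the 47 family promoters with the start site in a region (6.38%). Of the promoters of any gene, 2.82% of those with the start site in a region hold it, and 0.971% of all. The promoter bases shown for Mrpl41 and Mrpl50 hold none of the marked letters, which says nothing about the factors themselves.

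Across the family, 69 genes had 75 RefSeq promoters, and 47 of these had their start site in a region. The NRF1 letters, on either strand of 300 bases around the start site, were found in 25.5% of these 47, against 14.1% of the 7800 promoters of any gene with the start site in a region and 4.60% of all 32851 promoters. YY1 letters (AAGATGGC) were found in 14.9%, 5.33% and 2.75% of the same sets, and the ETS letters in 31.9%, 22.5% and 8.86%. At least 1 of these motifs was present in 28 of the 47 promoters (59.6%), against 36.8% of the 7800. The 51 such promoters of cytosolic ribosomal protein genes held any of them in 49.0%, with more ETS letters (35.3%) than the family, and with fewer NRF1 (7.84%) and YY1 letters (5.88%). Sp1 and KLF letters went the other way, in 63.8% of the 47 and 73.9% of the 7800. The CREB and ATF letters (TGACGTCA) were in 2.13% against 3.87%, and the ZNF143 letters (ACTACAA) in 4.26% against 4.72%. Of the 28 promoters of the family whose start site lay in no region, 1 held the NRF1 letters, 11 the ETS letters and 5 the YY1 letters. The median GC content was 60.3% for the 47 promoters and 63.0% for the 7800. All these shares are descriptions, and a match is not a bound site.

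The label fits most members: 42 of the 59 regions touch an end of their gene and 52 lie within 500 bp of one. Of 60 pairs of gene and region, 53 had a RefSeq start site, and in 49 of them it was within 1 kb, in 41 inside the region. In the other 4 pairs the start site was farther away (1 region each of Mrpl58, Mrps18b, Mrpl2 and Mrpl36), so those regions are near a gene end but not near that start. Other genes often lay near. Of the 59 members, 30 had another protein-coding gene outside the family within 1 kb, and with family members counted 52.5% of the regions had 2 or more genes that near, against 17.8% of all 7617 regions near gene ends. These counts take either end of the other gene, so they are not counts of shared start sites. The neighbours include Sars2, the mitochondrial seryl-tRNA synthetase, beside Mrps12, Twnk, the mitochondrial DNA helicase, beside Mrpl43, Ndufb5, a subunit of respiratory complex I, beside Mrpl47, and Psma2, a proteasome subunit, beside Mrpl32. Mrpl46 and Mrps11, a large- and a small-subunit gene, lie head to head with start sites 42 bp apart and share 1 region. Counts in such regions cannot be given to one gene. The members lie on 16 chromosomes, none on X, and are 200 to 937 bp wide (median 377 bp).

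Having a region was more frequent in this family than among genes at large: 67.9% of the Mrpl and Mrps genes had one within 1 kb, against 38.4% of 21887 protein-coding genes and 77.8% of 90 genes for cytosolic ribosomal proteins. The 25 genes without one include Mrpl4, Mrpl10, Mrpl13, Mrps2 and Mrps5. Of these 25, Mrpl18, Mrps2 and Mrps23 have a RefSeq start site in a region that is over 1 kb from the outer ends of the gene, so their promoters count among the 47 with the start site in a region although their regions are not members. The 1 kb limit decided a few cases. Just inside it were regions of Mrpl36 at 908 bp (45.5 ± 12.3 CPM, SD, n = 23 replicates) and of Mrpl38 at 774 bp (44.0 ± 14.5 CPM). Just outside were a region of Mrpl34 at 1159 bp (35.6 ± 13.7 CPM) and one of Mrpl18 at 1217 bp (181 ± 28.7 CPM), so that Mrpl18 counts among the genes without a region.

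Depth was low: total counts were 121599 to 963699 a replicate, of which the 59 members held 482 to 4577. WT MPP3 libraries 2 and 3 agreed within counting error over 13126 regions (the ratio of chi-square to its degrees of freedom was 1.005). They were summed and counted as 1 sample, so there are 23 replicates, and WT MPP3 has n = 2. The share of counts near gene ends was highest in IκB– HSC replicate 3 (73.8%) and lowest in WT MPP4 replicate 1 (61.1%). Both lay far from the mean of 67.4% (SD 2.86). Some of the values that lean on IκB– HSC replicate 3 are also given without it. Of the genes of the sort, Kit and Flt3 had regions within 1 kb, and the Flt3 region went from 50.9 CPM in HSC to 80.9 CPM in MPP4. Slamf1, Cd48, Ly6a and Ptprc had none, so the other gates could not be checked here. Of 8 stem and progenitor genes, 5 had a region. Mecom was at 85.3 CPM in HSC and 101, 100 and 103 CPM in MPP2, MPP3 and MPP4. Hlf was at 35.6 CPM in HSC and 42.8, 55.5 and 45.9 CPM in the others. Cd34 was also lowest in HSC (58.4 CPM). Runx1 was highest in HSC (50.3 CPM), and Meis1 (53.6 CPM in HSC) was highest in MPP3 (58.1 CPM). These regions do not settle what the HSC group holds. Regions were found at 0 of the T cell, B cell, neutrophil and monocyte, and endothelial and stroma markers looked for, and at 1 of 4 erythroid markers (Epor).

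Where genes of this family had a region, it was open to about the same degree as other regions near gene ends. Levels are given in CPM, counts divided by the TMM-scaled library size, and per kb of region where genes are compared. Over all replicates the members ran from 87.0 to 390 CPM per kb with a median of 155, against a median of 160 for all regions near gene ends, 125 for regions elsewhere and 165 for regions of cytosolic ribosomal protein genes. Large- and small-subunit genes had medians of 151 and 158 CPM per kb, a gap far smaller than the range within either. The most open was Mrpl17, in the large subunit, with 390 ± 63.9 CPM per kb (SD, n = 23), which lay above 99.1% of regions near gene ends. Mrps14, in the small subunit, followed with 345 ± 69.9 CPM per kb. Mrpl32, Mrpl47 and Mrpl50 came next at 299, 294 and 293 CPM per kb, and their SDs of 58.5, 62.0 and 77.1 leave these neighbours in the order indistinguishable. At the other end were Mrpl14 (103), a region of Mrpl2 (101), Mrpl3 (92.5), Mrpl11 (90.1) and Mrpl58 (87.0 CPM per kb). Mrpl2 and Mrpl3 encode proteins of the ancient core of the large subunit. These low regions rested on few reads, and Mrpl3, Mrpl11 and Mrpl58 had 0 counts in at least 1 replicate. The coefficient of variation of single members over replicates was 0.164 to 0.568 with a median of 0.289, and counting error alone would give a median of 0.268, so much of the spread is at the level of counting error.

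**Figure D1:**
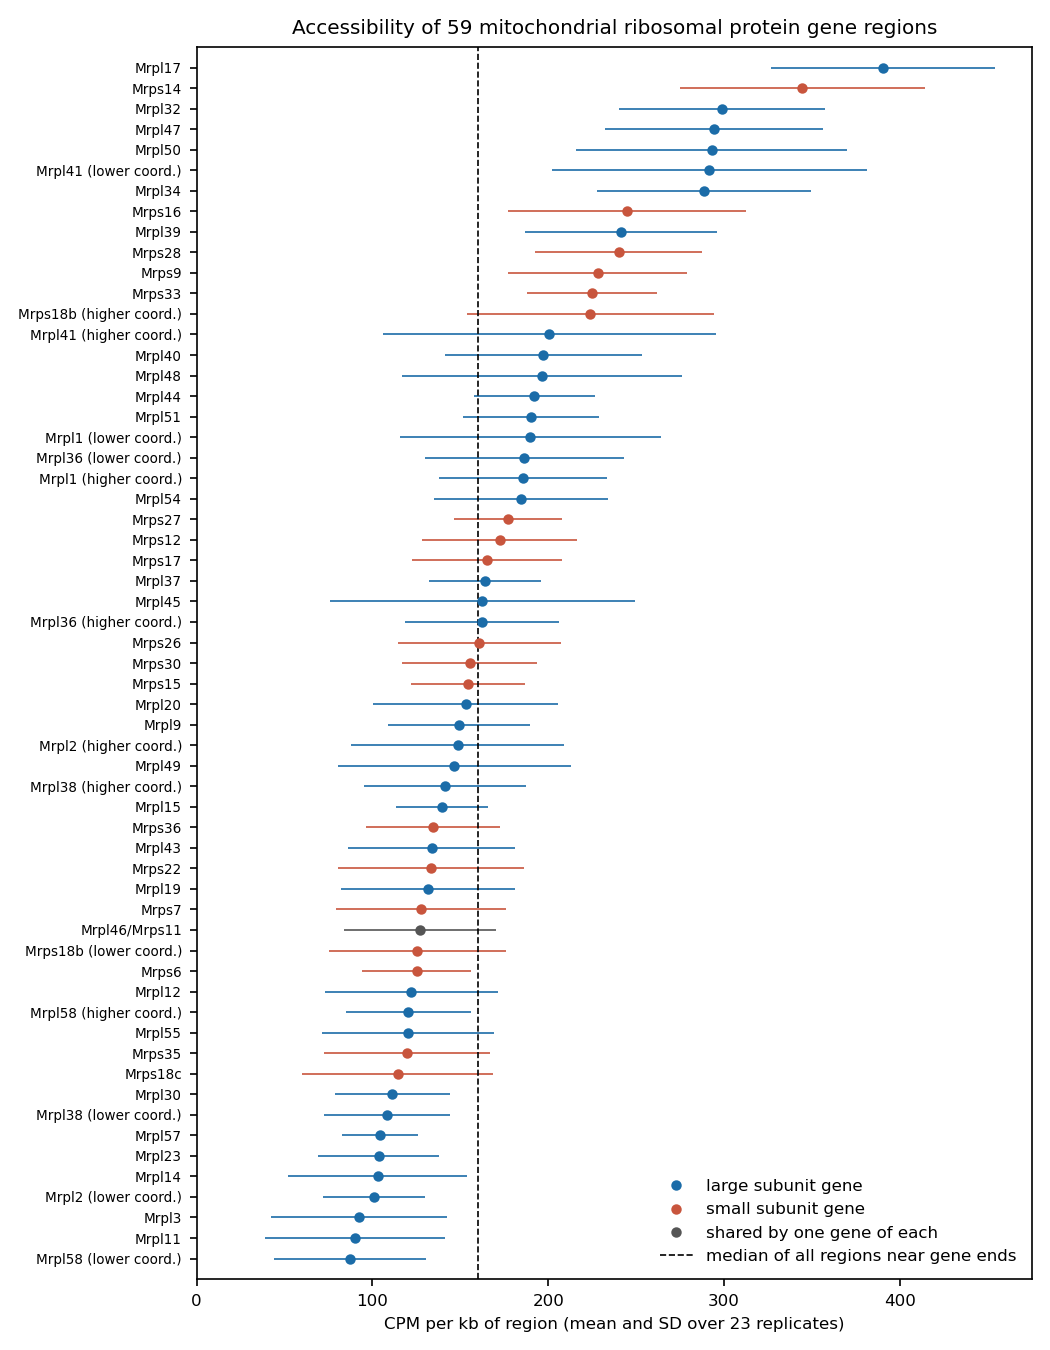
Accessibility of each of the 59 regions in CPM per kb of region, as mean (point) and SD (bar) over 23 replicates, ordered by level; where a gene has more than 1 region they are told apart as lower and higher coordinate. Most members lie near the median of all regions near gene ends (160 CPM per kb, dashed), with Mrpl17 (390) and Mrps14 (345) at the top and a region of Mrpl58 (87.0) at the bottom.

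Some genes had more than 1 region, and their regions differed in level. Mrpl41 had one over its start site with 292 ± 89.5 CPM per kb and one 689 bp away with 201 ± 94.5 CPM per kb. Mrps18b had 224 CPM per kb in the region nearer its start site and 126 in the other. The 2 regions of Mrpl1 were alike at 190 and 186 CPM per kb. Mrpl36 had 186 and 162, Mrpl2 had 148 and 101, Mrpl38 had 141 and 108, and Mrpl58 had 120 and 87.0 CPM per kb. The lowest member of all was thus the region at the start site of Mrpl58, below the one beyond the other end of that gene.

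The first comparison asks whether growth in an IκB– host changed these promoters in WT donor cells. It did not detectably do so. Summed over the 59 members, accessibility was 4356 ± 332 CPM over all 23 replicates. In HSC it was 4291 to 4563 CPM in WT recipients and 3907 to 5556 CPM in IκB– recipients. In MPP2 it was 4314 ± 132 CPM in WT and 4101 ± 239 CPM in IκB– recipients, in MPP3 4273 ± 1.47 (n = 2) and 4409 ± 81.8 CPM, and in MPP4 4303 ± 355 and 4394 ± 156 CPM (SD, n = 3 otherwise). The widest spread was within IκB– HSC, where replicate 3 held the highest sum of all replicates and replicate 1 the lowest. As a share of counts near gene ends, the members held 0.631% to 0.743%, and IκB– HSC replicate 3 was again the highest, next to WT MPP4 replicate 1 with 0.741%.

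**Figure D2:**
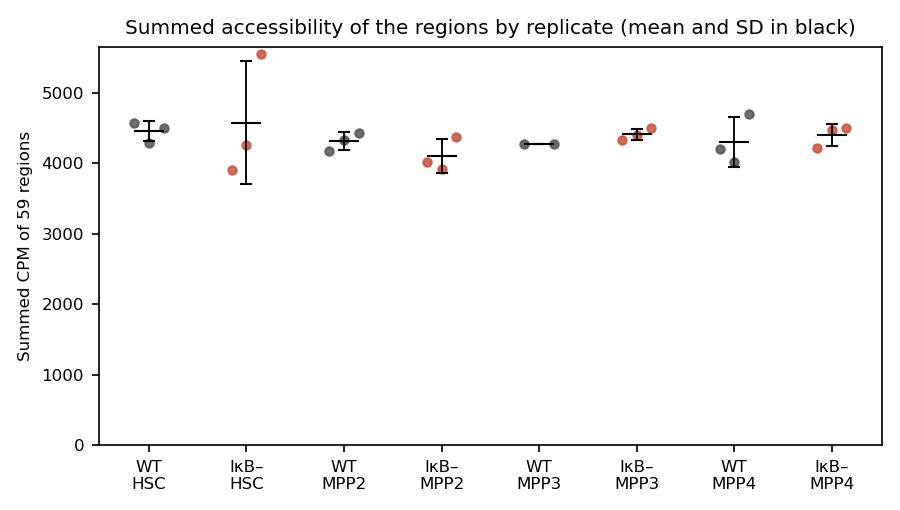
Summed CPM of the 59 regions in each replicate (points), by recipient type and subset, with the group mean and SD in black. The groups overlap or lie close together near 4356 CPM, and IκB– HSC replicate 3 is the high point at 5556 CPM.

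Region by region, 0 of the 59 members were called (edgeR quasi-likelihood test, adjusted p under 0.05) for the mean recipient effect over the 4 subsets, where 1.73% of all 13325 regions tested were called. Of the 7445 tested regions near gene ends, 39 were called. At an unadjusted p under 0.05 there were 3 members (5.08%), against 14.3% of all regions. All regions include those away from gene ends, so here and below this share is not that of regions like the members. The log2 fold changes of members (IκB– over WT) ran from -0.62 to 0.59 with a median of 0.027, against -0.0021 for all regions, and 57 of the 59 were under 0.5 in size. Their median standard error was 0.18, and even the extreme values, 0.59 ± 0.22 and -0.62 ± 0.32 (SE), were not called. A change of about 0.5 in a single member could thus be missed at this depth. By subunit, 18 of 40 regions of large-subunit genes and 15 of 20 of small-subunit genes had a positive sign, with medians of -0.036 and 0.088, and 0 regions of either were called. DESeq2 also called 0 members, and 1.1% of all regions.

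The member with the smallest p was the Mrpl41 region away from the start site. Mrpl41 is a large-subunit protein, and Pnpla7, a lysophospholipase gene, is also within 1 kb. Its level in WT recipients was between 27.5 and 60 CPM with a median of 41.3 (n = 11), and in IκB– recipients 24.2 to 128 CPM with a median of 66.1 (n = 12). Values overlapped between recipients over all subsets, but not in MPP3, where WT replicates were at 43.1 and 36.4 CPM and IκB– replicates at 62.5, 78.9 and 69.7 CPM. The highest value, 128 CPM, was that of IκB– HSC replicate 3. The mean log2 fold change was 0.59 ± 0.22 (SE; edgeR adjusted p = 0.173), and 0.31 without that replicate. In MPP3 alone it was 0.81 ± 0.39 (edgeR adjusted p = 0.509). The start-site region of Mrpl41, whose promoter is printed among the sequences, did not pass either, with a mean log2 fold change of 0.092 ± 0.15 (edgeR adjusted p = 0.847). Its sign differed between subsets: -0.47 ± 0.29 in MPP2, where IκB– replicates (87.1 to 124 CPM) were under WT replicates (141 to 169 CPM), and 0.37 ± 0.29 in MPP3, where they were above (145 to 188 against 105 to 142 CPM). The edgeR adjusted p of these was 0.9996 and 0.767, and in HSC and MPP4 the groups overlapped.

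On the lower side the smallest p belonged to Mrpl50, a large-subunit protein without a bacterial counterpart, whose start lies next to that of Zfp189. In HSC it was at 189, 174 and 140 CPM in WT recipients and at 136, 106 and 106 CPM in IκB– recipients, so the groups did not overlap. In MPP3 it was at 154 and 106 CPM in WT and at 89.0, 104 and 77.8 CPM in IκB– recipients, again without overlap. Such a lack of overlap between recipients was found for 6 of 59 members in HSC, 4 in MPP2, 14 in MPP3 (WT n = 2) and 6 in MPP4. The share over all regions is not given here. In MPP2 the groups overlapped, with 177, 99.0 and 147 CPM in WT and 167, 174 and 111 CPM in IκB– recipients. In MPP4 they overlapped too, with 172, 148 and 99.2 CPM against 132, 82.8 and 107 CPM. The mean log2 fold change was -0.32 ± 0.14 (edgeR adjusted p = 0.243), not past the threshold.

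**Figure D3:**
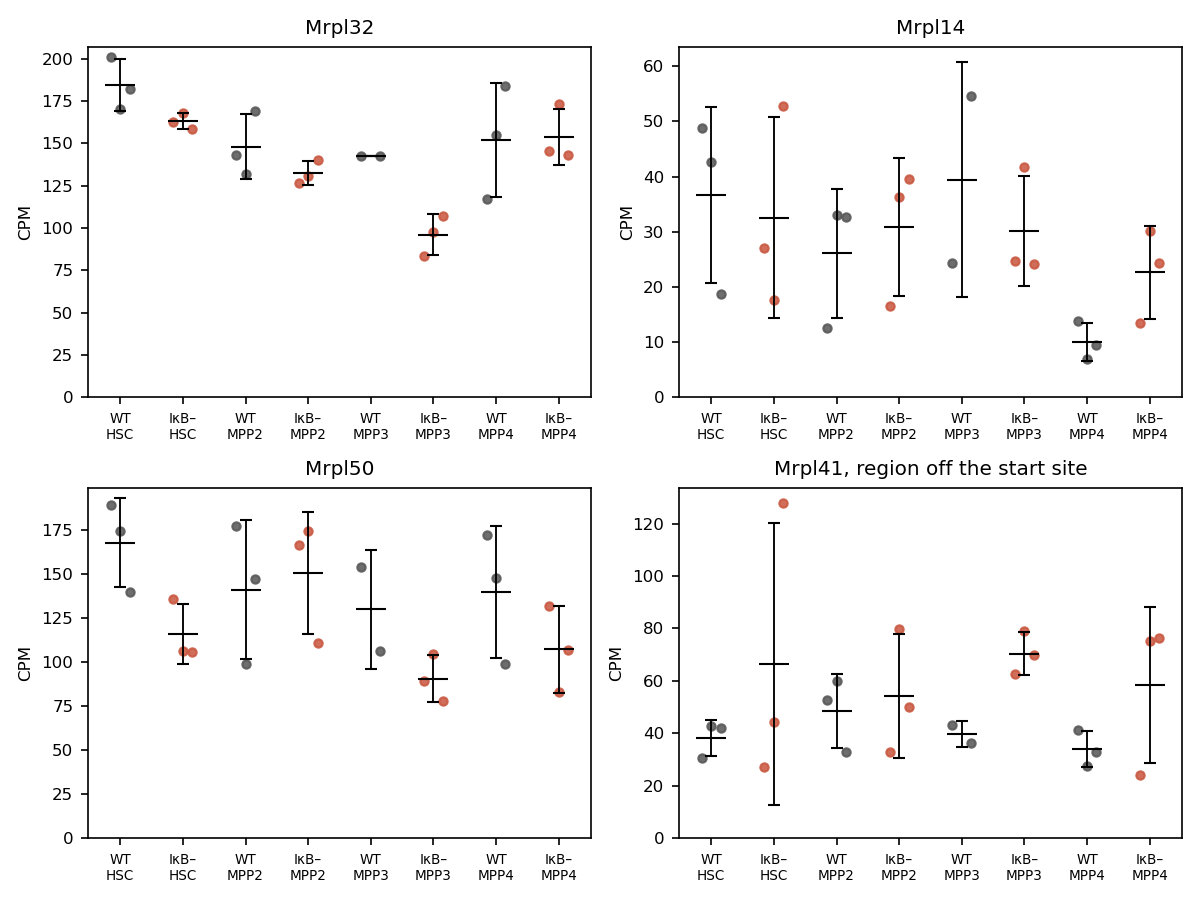
CPM per replicate (points) of the regions of Mrpl32, Mrpl14, Mrpl50 and the Mrpl41 region off the start site, by recipient type and subset, with the mean and SD in black. The MPP3 replicates of Mrpl32 (83.4 to 143 CPM) lie under all its HSC replicates (159 to 201 CPM), and Mrpl41 has its highest value, 128 CPM, in IκB– HSC replicate 3.

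Mrpl32, a large-subunit protein matured by a protease of the inner membrane, had a mean log2 fold change of -0.23 ± 0.11 (edgeR adjusted p = 0.332). Mrpl11, which lies at the factor-binding site of the large subunit, had -0.62 ± 0.32 (edgeR adjusted p = 0.381) on very few reads. Its counts in IκB– HSC were 0, 0 and 6, and in WT HSC 4, 6 and 9. Without IκB– HSC replicate 3, which holds the 6, the edgeR adjusted p was 0.0745. Mrps22, a small-subunit protein, had the smallest p of a higher value in HSC, at 81.4, 61.9 and 30.8 CPM in IκB– and 36.6, 23.3 and 18.7 CPM in WT recipients. Those groups overlapped, and the log2 fold change in HSC was 1.11 ± 0.52 (edgeR adjusted p = 0.775). Averaged over subsets Mrps22 had 0.37 ± 0.22, the RNase III-like Mrpl44 0.22 ± 0.15, Mrps14 0.18 ± 0.12 and Mrpl3 0.49 ± 0.33. Over 10 other ways of processing they ran from 0.25 to 0.40, 0.21 to 0.23, 0.11 to 0.19 and 0.20 to 0.52 in the same order. On the lower side Mrps28 had -0.17 ± 0.12 and Mrps36 -0.22 ± 0.17. In the main fit the edgeR adjusted p of these 6 members lay between 0.472 and 0.608. Without IκB– HSC replicate 3, where Mrps14 was at 295 CPM against 156 and 186 CPM in the other IκB– HSC replicates, Mrps14 had 0.092 and Mrpl44 0.13.

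Within single subsets, 0 of 59 members were called in any of HSC, MPP2, MPP3 or MPP4, where 0.0%, 0.0%, 0.21% and 0.045% of all regions were. At an unadjusted p under 0.05 there were 2, 0, 3 and 2 members, against 6.23%, 3.65%, 9.49% and 7.07% of all regions. These shares again include regions away from gene ends, so members cannot be read as below the share of regions like them. The median log2 fold change of the members was lowest for MPP2 (-0.085) and otherwise 0.067 (HSC), 0.042 (MPP3) and 0.076 (MPP4). The HSC median was -0.15 without IκB– HSC replicate 3, and the MPP4 median was -0.044 without WT MPP4 replicate 2, and the MPP3 median was -0.032 with the share of counts near gene ends in the fit, so none of these 3 kept its sign. The members of smallest p in MPP4 were Mrpl47 and Mrpl48. Mrpl47, which shares its region with Ndufb5, was at 96.4, 162 and 179 CPM in WT MPP4 and at 202, 271 and 198 CPM in IκB– MPP4, with a log2 fold change of 0.54 ± 0.24 (edgeR adjusted p = 0.644). With 1 replicate left out this ran from 0.34, without WT MPP4 replicate 1, to 0.69, without WT MPP4 replicate 3. Mrpl48 was at 172, 124 and 156 CPM in WT MPP4 and at 102, 37.6 and 94.6 CPM in IκB– MPP4, with -0.78 ± 0.34 (edgeR adjusted p = 0.644). Neither pair of groups overlapped. In MPP2 the smallest p of a higher value was that of Mrps9, at 0.47 ± 0.27. A joint edgeR test of whether the recipient effect differed between subsets called 0 members (0.0% of all regions), with 1 member at an unadjusted p under 0.05, against 4.05% of all regions.

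The second comparison asks whether these promoters change as stem cells give rise to the progenitor classes, taking both recipient types together. In the joint edgeR test over the 4 subsets, 7.2% of all regions were called and 0 of the 59 members, with 3 members at an unadjusted p under 0.05 (5.08%, against 18.8% of all regions). Among regions near gene ends, 121 of 7445 were called. Calls were thus rarer there than over all regions, so 18.8% is not the background for regions like the members. Against HSC, 0 members were called in MPP2 (0.03% of all regions) and 0 in MPP4 (1.22%), with 3 and 2 at an unadjusted p under 0.05, against 8.32% and 12.04% of all regions. In MPP3, 1 member was called, Mrpl32, which was lower, where 2.58% of all regions were called and 1.95% as lower. Of the 7445 tested regions near gene ends, 42 were called, 30 of them lower. A single call among 59 is too few to set against either share. Median log2 fold changes of the members were -0.055 for MPP2, -0.0052 for MPP3 and -0.036 for MPP4, and 55 of 59 members were under 0.5 in size in MPP3.

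**Figure D4:**
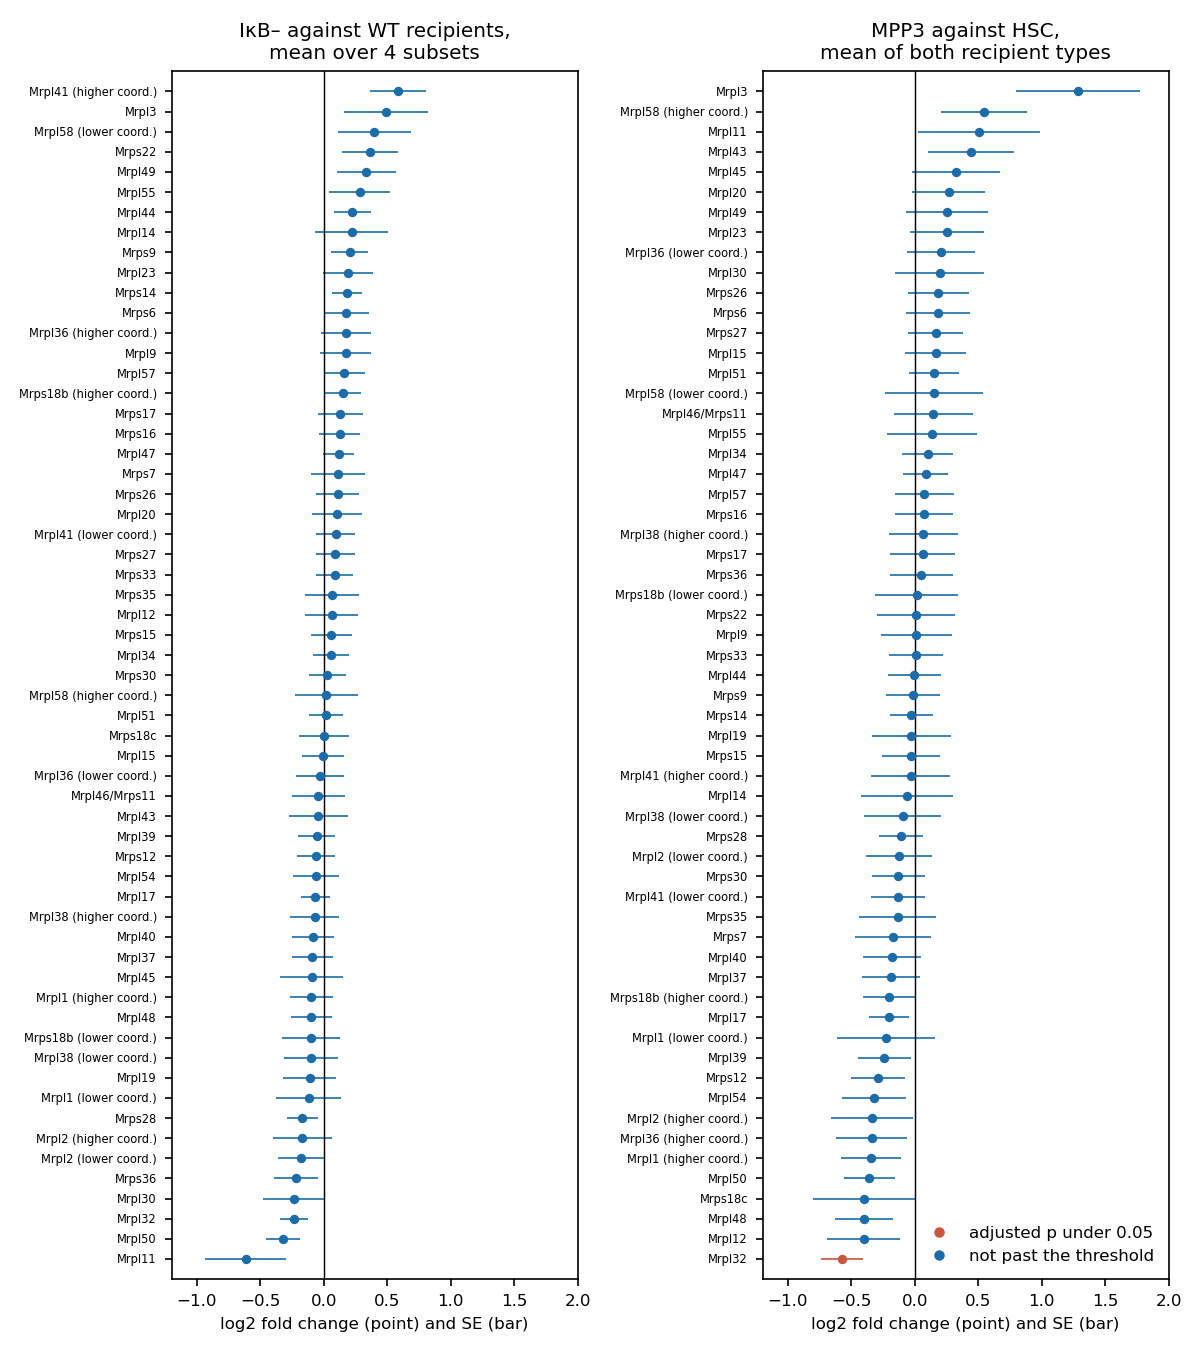
Log2 fold change (point) and SE (bar) of each of the 59 regions for IκB– against WT recipients, averaged over 4 subsets (left), and for MPP3 against HSC (right), each ordered by its value. On the left no region passed an adjusted p of 0.05, with values from -0.62 to 0.59, and on the right Mrpl32 alone did, at -0.57.

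In HSC, Mrpl32 was at 201, 171 and 182 CPM in WT recipients and at 163, 168 and 159 CPM in IκB– recipients. In MPP3 it was at 143 and 142 CPM in WT and at 83.4, 97.4 and 107 CPM in IκB– recipients, so every MPP3 replicate was under every HSC replicate. MPP2 lay between at 127 to 169 CPM, and MPP4 at 117 to 184 CPM, and both overlapped with HSC. The log2 fold change of MPP3 against HSC was -0.57 ± 0.16 (SE; edgeR adjusted p = 0.0474). In MPP2 and MPP4 it was -0.31 ± 0.16 and -0.18 ± 0.17, and the joint test over subsets gave an edgeR adjusted p of 0.0949. Within MPP3 the IκB– replicates were all under the WT replicates, with -0.59 ± 0.22 (edgeR adjusted p = 0.304). The call was close to the threshold: it held in 7 of 11 other ways of processing (adjusted p 0.0133 to 0.158) and in 2 of the 23 fits that left out 1 replicate (0.0394 to 0.159, the highest without WT MPP3 replicates 2 and 3). The region also covers the start of Psma2, and accessibility of the 2 promoters cannot be told apart.

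Other members differed more in size but on fewer reads. Mrpl14, a protein of the subunit interface, had 6.88 to 54.5 CPM over all replicates. It was at 48.7, 42.6 and 18.7 CPM in WT HSC and 27.1, 17.7 and 52.9 CPM in IκB– HSC. In MPP4 it was at 13.8, 6.88 and 9.44 CPM in WT, which is 2 counts in each library, and at 13.5, 30.1 and 24.4 CPM in IκB– recipients. The HSC and MPP4 values overlapped, and the log2 fold change was -1.34 ± 0.46 (edgeR adjusted p = 0.147). Mrpl3 had 14.2 ± 10 CPM in HSC (n = 6) and 28.9 ± 7.06 CPM in MPP3 (n = 5), a log2 fold change of 1.28 ± 0.49 (edgeR adjusted p = 0.175) that rests on 1 to 6 counts in each HSC library. The HSC mean joins recipient groups that did not overlap, WT at 4.66 to 7.75 CPM (1 or 2 counts a library) and IκB– at 13.6 to 26.5 CPM. In MPP3 the WT mean was 31.6 CPM and the IκB– mean 27.04 CPM. The recipient effect on Mrpl3 in HSC, 1.78 ± 0.88, was the largest of the members there and did not pass (edgeR adjusted p = 0.791), nor was a difference of its recipient effect between subsets called (edgeR adjusted p = 0.999). The start-site region of Mrpl58 was lowest in MPP2 at 11.6 ± 7.50 CPM, with 25 ± 4.46 CPM in HSC, 28.4 ± 3.55 CPM in MPP3 and 31.1 ± 16.4 CPM in MPP4 (joint edgeR adjusted p = 0.194). Mrpl48, of the large subunit's central protuberance, was at 145 ± 71.1 CPM in HSC and 99.9 ± 29.3 CPM in MPP2 (log2 fold change -0.59 ± 0.23, edgeR adjusted p = 0.487), with its highest value, 278 CPM, in IκB– HSC replicate 3. Without that replicate the log2 fold change was -0.12 (edgeR adjusted p = 0.989). The region shared by Mrpl46 and Mrps11 had 38.1 ± 14.3 CPM in HSC and 58.3 ± 11.7 CPM in MPP2, and Mrpl20 had 40 ± 19.3 CPM in HSC and 59 ± 13.2 CPM in MPP4. Their log2 fold changes were 0.56 ± 0.30 and 0.55 ± 0.30 (edgeR adjusted p = 0.634 and 0.472). Mrpl45, which holds the ribosome to the inner membrane, had a log2 fold change of 0.32 ± 0.35 in MPP3 against HSC (edgeR adjusted p = 0.771). It was called only when IκB– HSC replicate 3 was left out, at 1.38 (edgeR adjusted p = 0.0360), when the joint test over subsets also called it (0.0279). Its HSC values were 48.7, 23.3 and 23.3 CPM in WT and 13.6, 8.84 and 101 CPM in IκB– recipients, the last being that replicate, and the region was singled out after its values were seen.

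Other genes of mitochondrial translation were looked at in the same way. In the lists of mitochondrial ribosomal proteins with other symbols (3 of 5 genes with a region), assembly and rRNA processing factors (19 of 29), translation factors (10 of 14), aminoacyl-tRNA synthetases (14 of 17), mitochondrial DNA transcription and replication (7 of 9) and regulators (7 of 9), 0 regions were called in any comparison, where 0.0% to 7.2% of all regions were. With 4 to 19 regions a list, 0 calls is near that background. For the mean recipient effect, an unadjusted p under 0.05 was found for 3 of 8 regulator regions, 3 of 16 synthetase regions and 1 of 10 of translation factors. It was found for 0 of 4 regions of ribosomal proteins with other symbols, 0 of 18 of assembly factors and 0 of 7 of mitochondrial DNA transcription and replication, against 14.3% of all regions. Of the translation factors, Tsfm, the exchange factor of the mitochondrial elongation factor Tu, had the smallest p for the recipient effect (log2 fold change 0.70 ± 0.26, edgeR adjusted p = 0.183). Among the synthetases it was Nars2 (0.46 ± 0.15, edgeR adjusted p = 0.114). In the list of regulators it was Ppargc1a, a coactivator of mitochondrial biogenesis (0.87 ± 0.27, edgeR adjusted p = 0.0808). Regions of cytosolic ribosomal protein genes were also not called for the recipient effect (0 of 71 tested) or over the subsets (0 of 71).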

How the data were processed

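ATAC-seq was done on 24 libraries of sorted donor cells. Per the submitters' processing notes, Bowtie2, SAMtools, Picard, MACS2 2.1.0, deepTools and mm10 were used; how counting and duplicates were handled is not given in the sources used here. The authors deposited raw counts per region in 1 table of 13910 regions, 5 of them mitochondrial. WT MPP3 libraries 2 and 3 were summed. Counts were scaled by TMM and filtered by filterByExpr (13325 regions kept, all 59 members among them), and 8 group means were fitted by robust quasi-likelihood in edgeR 4.0.16 (R 4.3.3; 15 residual degrees of freedom). P-values were adjusted by Benjamini-Hochberg over all regions tested, and an adjusted p under 0.05 is a call. The test was also run on simulated counts, and the outcome is not given here. Alternatives included DESeq2 1.42.0 and limma 3.58.1. Gene ends and promoters came from RefSeq GRCm38.p6. At 482 to 4577 counts over 59 members a replicate, single regions are imprecise. Named were the members of smallest p in each comparison, the 5 highest and lowest levels, members nearest to the 1 kb limit, called members, genes with more than 1 region, and the smallest p of each pathway list. The members and lists were chosen with earlier results of these data known.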

Additional observations from a re-analysis of the deposited data

How the results depend on the processing

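No called result changed sign, but medians of the members, which were near 0, did. That of recipients in HSC (0.067) was -0.15 without IκB– HSC replicate 3, -0.0052 with total counts and -0.024 with cyclic loess. The count of members called stayed at 0 in every alternative for the mean recipient effect, each subset's recipient effect, their difference between subsets, MPP2 against HSC and MPP4 against HSC. For MPP3 against HSC the 1 call (Mrpl32) went to 0 with total counts, without the filter on low counts, with the DESeq2 test and with cyclic loess, and ran from 0 to 2 when 1 replicate was left out. It stayed at 1 without WT MPP4 replicate 1 and was 2 without IκB– HSC replicate 3; each of the other 21 fits gave 0. Over the joint subset test 1 member was called when the share of counts near gene ends entered the fit, and 0 to 1 when 1 replicate was left out (1 without IκB– HSC replicate 3). The cause was not tested. Median log2 fold changes ran, with 1 replicate left out, from -0.15 to 0.15 for recipients in HSC, from -0.044 to 0.13 in MPP4 and from -0.066 to 0.12 for MPP3 against HSC. Total counts gave 0.13 for the last, and moved the median of all regions to 0.12. No label says that replicate numbers pair the samples, and they were not taken as pairs because not every pair of same-numbered libraries correlated over 0.1. Between recipients they did so in 7 of 12 pairs (-0.053 to 0.37), and between subsets in 15 of 18 WT and 12 of 18 IκB– pairs. All pairs between subsets were positive, and 20 of 24 libraries were closest to their own number in the other recipient type, a hint of shared structure from the data and not from the design. With the replicate block and all 24 libraries kept apart, the joint subset test called 2 members, Mrpl32 and Mrpl14, under either form of the block, and 0 with the 24 libraries apart and no block. Of all regions, the same fits called 14.9% and 16.6% with the block and 8.17% without. The share of regions near gene ends called in these fits is not given here. The 2 calls among 59 are too few to set against these shares. Depth limits the low regions most: Mrpl3, Mrpl11 and Mrpl58 had 0 counts in at least 1 replicate.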
